A study of Mus musculus with 6 samples.

Results

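The genes described here encode the initiation, elongation and release factors of cytosolic translation, with the proteins that modify or restrain them. They were taken by name: symbols that begin with Eif or Eef and a digit, plus Etf1, Gspt1 and Abce1, and without the Eif2ak kinases. The rule found 56 of the 9093 genes in the deposited table. Ribosome footprints, the mRNA fragments that ribosomes shield from nuclease, were measured in 2 libraries of Mettl5 knockout (KO) and 2 of wild-type (WT) mouse embryonic stem cells, with 1 input mRNA library of each genotype. Mettl5 encodes the methyltransferase that places an N6-methyladenosine on 18S ribosomal RNA. The knockout was made with CRISPR/Cas9, and the labels give neither the number of clones nor separate cultures. The p-values below thus rest on library-to-library spread that may be purely technical. The background of all cells was a cross of 129Sv females with C57BL/6 BVSC males. They were kept in serum-free medium with 1 µM PD0325901, 3 µM CHIR99021 and 1000 U/ml leukemia inhibitory factor, and all were given cycloheximide, which arrests elongating ribosomes, before lysis.

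Initiation factors bring the small ribosomal subunit, the initiator tRNA and the mRNA together. eIF2 carries the initiator tRNA with GTP and is recharged by the exchange factor eIF2B. The large eIF3 complex sits on the small subunit, and the eIF4 factors bind the cap and unwind the leader. eIF5, eIF5B and eIF1A act in start-site recognition and subunit joining. The elongation factors eEF1 and eEF2 deliver aminoacyl-tRNA and move the ribosome along, after which eRF1 (Etf1) and eRF3 (Gspt1) release the peptide and ABCE1 splits the subunits. Embryonic stem cells are known for low global translation that increases as they differentiate. Many mRNAs of the translation machinery begin with a pyrimidine run through which the mTORC1 kinase controls their translation.

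The 2 KO footprint libraries held 2060010 and 3472613 reads, against 3524739 and 8675267 in the WT libraries. The input was deposited only as values scaled to the library total. Input totals inferred from the lowest value of each library were 15931259 reads in KO cells and 17912908 in WT cells. These totals assume that the lowest value stands for the smallest possible read count, and too few low values bore this out. Mettl5 itself had 9.71 and 11.2 footprint CPM, the reads of a gene scaled to the library total, in KO libraries, against 123 and 127 in WT libraries. Replicates lay close together, with a biological coefficient of variation of 2.5% in the edgeR fit. Of 12 naive pluripotency markers, 7 had more footprints in KO cells and 2 fewer, while 18.3% of all genes were called higher and 16% lower. Their summed levels were 5995 to 6019 CPM in KO and 5448 to 5452 in WT libraries. Of the 7, Nanog and Dppa3 lie on chromosome 6 and Zfp42 and Klf2 on chromosome 8. The median change of all measured genes (log2, KO over WT) was 0.31 and 0.39 on these chromosomes. Klf4, Pou5f1 and Dppa5a lie on other chromosomes. The 3 of 12 fibroblast markers in the table (Col1a1, Col5a1 and Fbln2) and the 5 of 11 primitive endoderm markers in it (Lamb1, Sparc, Col4a1, Col4a2 and Lama1) were all lower. Fibroblast markers summed to 22.7 to 30.6 CPM in KO and 365 to 372 in WT libraries. Most of that WT sum was Col1a1 alone, with 293 and 300 CPM in WT and 7.28 and 5.18 in KO libraries. Its log2 change was -5.61, against -1.99 for Col5a1 and -1.62 for Fbln2. Endoderm markers summed to 1836 to 1894 CPM in KO and 3220 to 3222 in WT libraries. The other markers of both lists were not analysed here. The part of these cell markers in the results below was not tested, and in bulk lysates fewer cells of a type cannot be told apart from less RNA per cell.

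Footprint levels of the factors shifted in both directions in KO cells. Of the 56 genes, 15 were higher, 14 were lower and 27 did not pass edgeR's quasi-likelihood test at a Benjamini-Hochberg adjusted p of 0.05 over all 9093 genes. Over the whole table, 18.3% of genes were called higher and 16% lower. The factors are more abundant than most genes, with a median of 183 CPM against 41.9 CPM over all genes, and abundant genes are called more often. Among the 2352 genes with a mean of at least 100 CPM, 703 were higher and 599 lower, and among the 44 factor genes at that level 12 were higher and 10 lower. The median change was 0.04 (log2, KO over WT) for the factors and 0.00 for all genes, with an SD over genes of 0.35 for the factors and 0.39 for all genes. Together the 56 genes took 22961 and 22870 CPM in KO libraries, against 22194 and 22330 CPM in WT libraries. The KO and WT values did not overlap for 41 of the 56 genes, and for 5878 of all 9093. At a mean of at least 100 CPM they did not overlap for 31 of the 44 factor genes, and for 1823 of the 2352 genes.

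**Figure D1:**
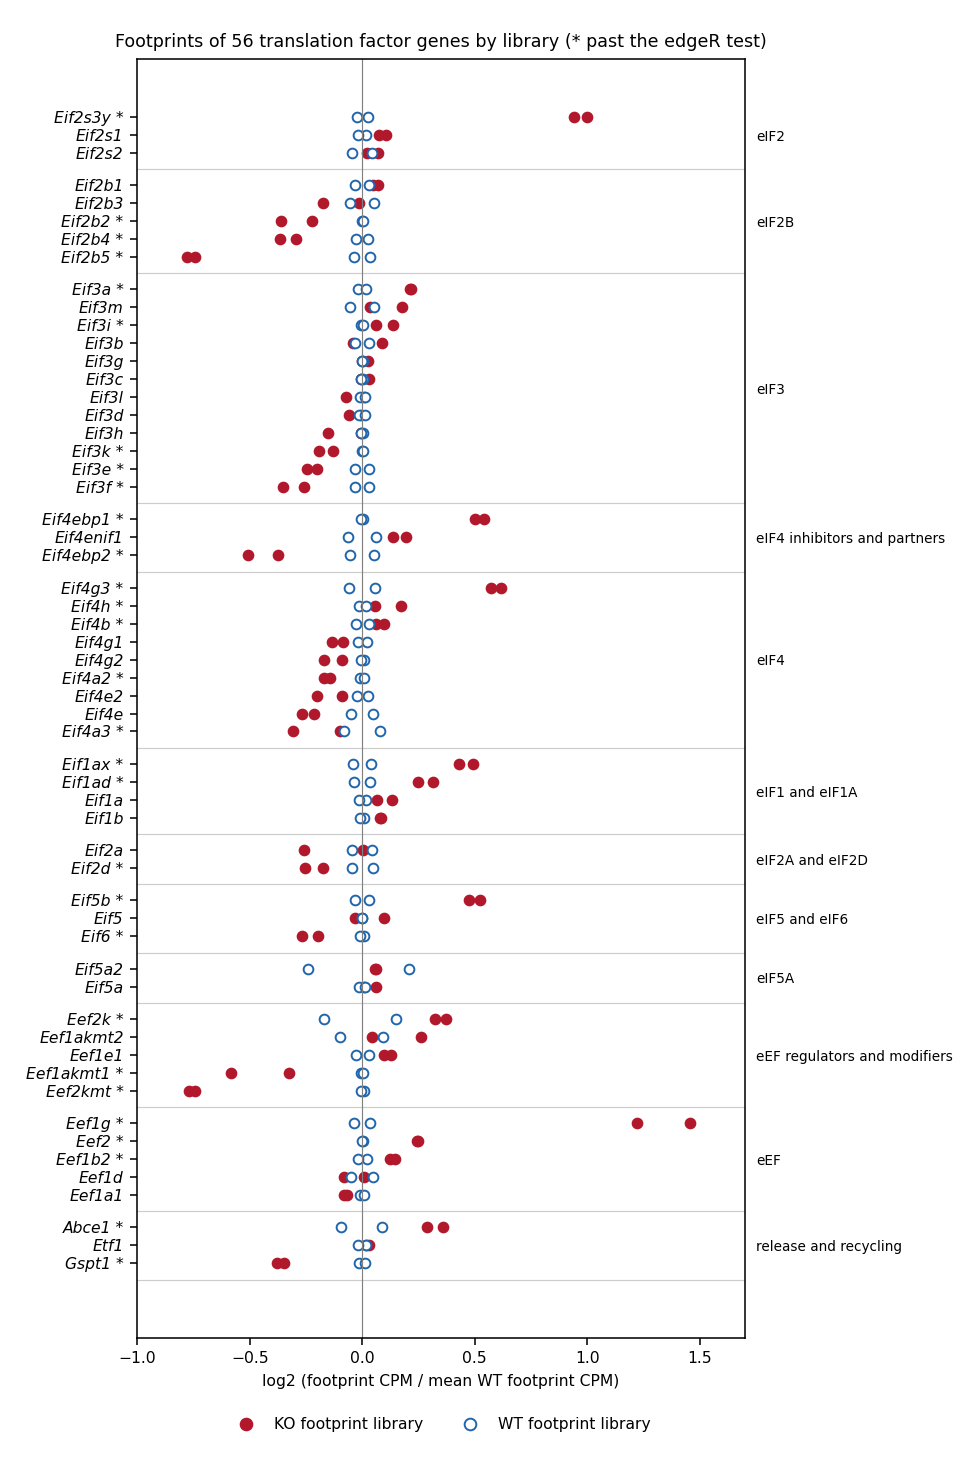
Footprint level of each of the 56 genes in each library, as the log2 ratio to the mean of the WT libraries, grouped by complex or role; filled points are the 2 KO libraries, open points the 2 WT libraries, and an asterisk marks the 29 genes past the edgeR test. Eef1g and Eif2s3y lie farthest to the right and Eif2b5 and Eef2kmt farthest to the left.

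eIF2 has 3 subunits, and the gene for one of them stood apart. Eif2s3y (ENSMUSG00000069049.11, chromosome Y, 1010562 to 1049134 in GRCm38), the Y-linked copy of the gamma subunit that binds the initiator tRNA, had 212 and 204 CPM in KO libraries, against 104 and 108 CPM in WT libraries. Both KO libraries were far above both WT libraries, a log2 change of 0.98 ± 0.07 (SE, n = 2 each) with an edgeR adjusted p of 4.52e-42. The other measured genes of the Y chromosome, Ddx3y (log2 0.59) and Uty (log2 0.75), were also higher in KO cells. The X-linked copy, Eif2s3x, was not analysed here, so the sum of both copies is unknown, and reads of these near-identical copies may be split between them. The alpha subunit gene Eif2s1, whose protein is the target of the stress kinases, had 153 and 156 CPM in KO and 147 and 144 in WT libraries. Its values did not overlap, but the change of 0.12 ± 0.07 did not pass the edgeR test (adjusted p = 0.179, n = 2 each). The beta subunit gene Eif2s2 had 136 and 131 CPM in KO and 125 and 134 in WT libraries, which overlapped.

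eIF2B is the exchange factor that reloads eIF2 with GTP, and 3 of its 5 subunit genes fell while the other two did not pass the test. Eif2b5, which encodes the catalytic epsilon subunit (ENSMUSG00000003235.12, chromosome 16, 20498795 to 20509325), had 147 and 143 CPM in KO libraries, against 252 and 240 CPM in WT libraries. That is a log2 change of -0.73 ± 0.06, with an edgeR adjusted p of 3.1e-28 (n = 2 each), and the groups were widely separated. The delta subunit gene Eif2b4 had 148 and 155 CPM in KO and 193 and 187 in WT libraries (log2 -0.29 ± 0.07). Eif2b2, the beta subunit gene, was lower by a similar amount (log2 -0.28 ± 0.10) at a smaller level, 64.6 and 58.7 CPM in KO and 75.2 and 75.5 in WT libraries. The alpha subunit gene Eif2b1 had 152 and 155 CPM in KO and 151 and 144 in WT libraries, and the gamma subunit gene Eif2b3 had 114 and 127 in KO and 133 and 123 in WT libraries. The summed footprints of the 5 genes were 625 and 638 CPM in KO libraries, against 804 and 770 CPM in WT libraries. In the input libraries the sum was 665 CPM in KO and 996 CPM in WT cells.

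In eIF3, 2 of 12 subunit genes rose, 3 fell and 7 did not pass, and the changes were small. Eif3a, the scaffold of the complex (ENSMUSG00000024991.7, chromosome 19, 60761116 to 60790693), had 1496 and 1492 CPM in KO libraries, against 1270 and 1302 CPM in WT libraries. It was higher by 0.24 ± 0.03 on the log2 scale (edgeR adjusted p = 2.59e-12, n = 2 each), with no overlap. Eif3i, a subunit of the module around eIF3b, rose by 0.13 ± 0.04. Eif3f (ENSMUSG00000031029.6, chromosome 7, 108934415 to 108941942), a subunit of the octamer core, had 424 and 452 CPM in KO and 529 and 552 in WT libraries, a change of -0.28 ± 0.04 and the largest in this complex. The gene of another core subunit, Eif3e, had 317 and 327 CPM in KO and 368 and 384 in WT libraries (log2 -0.20 ± 0.05). Eif3k changed by -0.14 ± 0.04. The 7 others (Eif3b, Eif3c, Eif3d, Eif3g, Eif3h, Eif3l and Eif3m) lay between -0.07 and 0.16. The sum over the complex was 9117 and 9101 CPM in KO libraries and 9004 and 9135 CPM in WT libraries, so the groups overlapped.

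**Figure D2:**
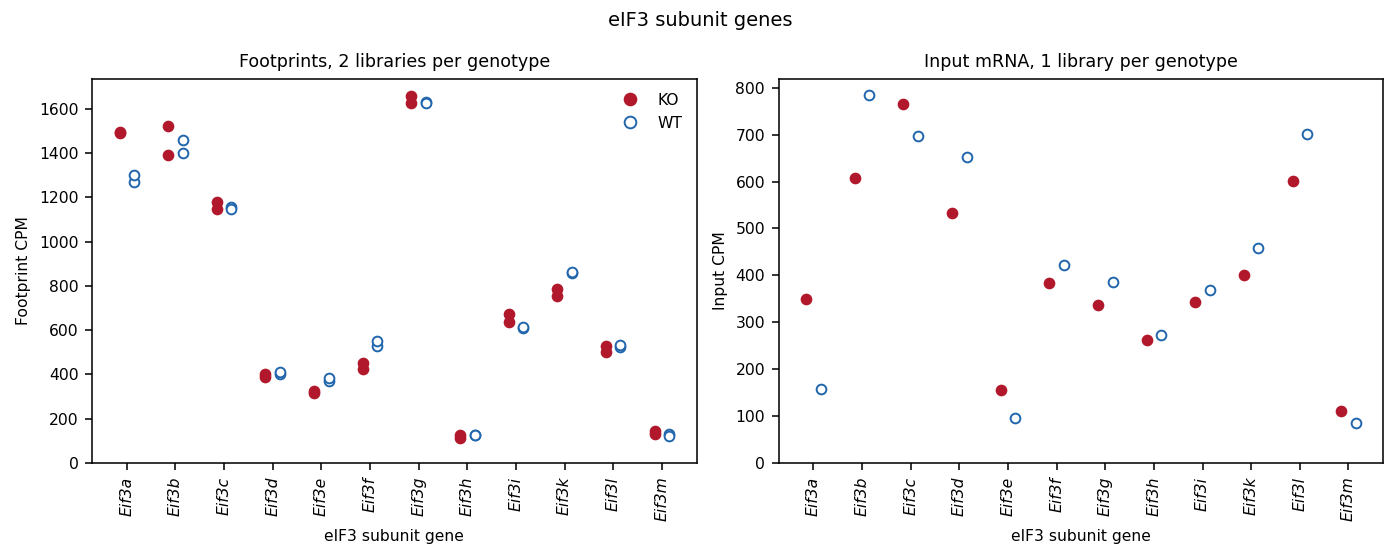
Footprint CPM (left, 2 libraries per genotype) and input CPM (right, 1 library per genotype) of the 12 eIF3 subunit genes; filled points are KO and open points WT libraries, on linear axes from 0. Footprints of KO and WT cells lie close together for most subunits, while the input of Eif3a was 349 CPM in KO and 158 CPM in WT cells.

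The eIF4 genes bind the cap and unwind the leader; 3 of 9 rose, 2 fell and 4 did not pass. The largest change was in a scaffold gene, Eif4g3 (ENSMUSG00000028760.16, chromosome 4, 137991779 to 138207086). It had 148 and 152 CPM in KO libraries, against 103 and 95.4 CPM in WT libraries, a log2 change of 0.64 ± 0.08 (edgeR adjusted p = 1.01e-14, n = 2 each) with no overlap. Its main paralog Eif4g1 had 599 and 579 CPM in KO and 626 and 644 in WT libraries, with a change of -0.09 ± 0.04 that did not pass (adjusted p = 0.0528 by edgeR, n = 2 each). Eif4g2, a relative that lacks the site for the cap-binding protein, had 222 and 234 CPM in KO and 251 and 248 in WT libraries (log2 -0.10 ± 0.06, not past the test). Of the 3 scaffold genes, Eif4g3 alone thus passed the test, while Eif4g1 and Eif4g2 changed by similar small amounts.

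Among the helicase genes, Eif4a2 had 322 and 329 CPM in KO and 360 and 364 in WT libraries (log2 -0.13 ± 0.05). Eif4a3, whose protein acts mainly in the exon junction complex, had 240 and 208 CPM in KO and 243 and 271 in WT libraries (log2 -0.22 ± 0.06). Eif4a1 was not analysed here, and its sequence resembles that of Eif4a2 closely enough to leave the split of reads uncertain. The helicase cofactor genes rose slightly, Eif4h by 0.13 ± 0.03 and Eif4b by 0.10 ± 0.04. The cap-binding protein gene Eif4e had 65.5 and 63.1 CPM in KO and 78.6 and 73.3 in WT libraries, and its relative Eif4e2 had 156 and 145 in KO and 163 and 169 in WT libraries. Neither passed the edgeR test, with an adjusted p of 0.105 for each (n = 2 each).

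The genes for the inhibitors of eIF4E moved in opposite directions. Eif4ebp1 (ENSMUSG00000031490.6, chromosome 8, 27260327 to 27275656), whose protein blocks eIF4E until mTORC1 phosphorylates it, had 470 and 483 CPM in KO libraries, against 333 and 330 CPM in WT libraries. Its log2 change was 0.55 ± 0.05 with an edgeR adjusted p of 8.26e-31 (n = 2 each). Eif4ebp2, a paralog with the same role, had 54.9 and 60.2 CPM in KO and 75.2 and 80.9 in WT libraries (log2 -0.42 ± 0.10). Neither pair of groups overlapped. Eif4enif1, which encodes the eIF4E transporter, changed by 0.20 ± 0.09 and did not pass.

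Of the genes that act in scanning, Eif1ax (ENSMUSG00000067194.6, chromosome X, 159372178 to 159389621), which encodes eIF1A, had 183 and 191 CPM in KO libraries, against 140 and 132 CPM in WT libraries. It was higher by 0.50 ± 0.07 (log2; edgeR adjusted p = 4.08e-12, n = 2 each), with no overlap. The autosomal copy Eif1a on chromosome 18 had 131 and 125 CPM in KO and 121 and 118 in WT libraries (log2 0.12 ± 0.08, not past the test). Reads of these close copies may be split between them. Eif1ad, named for its eIF1A domain, had 102 and 97.3 CPM in KO and 80 and 83.9 in WT libraries (log2 0.29 ± 0.09). Eif1b, a paralog of eIF1, had 35 and 34.8 CPM in KO and 33.2 and 32.7 in WT libraries, and Eif1 was not analysed here.

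The gene for the subunit-joining GTPase was among the largest increases. Eif5b (ENSMUSG00000026083.12, chromosome 1, 37998010 to 38055579) had 418 and 433 CPM in KO libraries, against 308 and 295 CPM in WT libraries. This was a log2 change of 0.53 ± 0.05 with an edgeR adjusted p of 7.34e-27 (n = 2 each). Eif5, which encodes the GTPase activator of eIF2, had 297 and 272 CPM in KO and 278 and 277 in WT libraries. Eif6, whose protein keeps the large subunit from joining too early, had 98.5 and 93.9 CPM in KO and 114 and 112 in WT libraries (log2 -0.21 ± 0.09). Of the genes of alternative initiator tRNA carriers, Eif2d had 125 and 119 CPM in KO and 137 and 146 in WT libraries (log2 -0.21 ± 0.08), while Eif2a had 131 and 156 in KO and 161 and 151 in WT libraries, which overlapped. Eif5a, which encodes the hypusine-carrying factor that relieves stalled ribosomes, had 348 and 336 CPM in KO and 331 and 337 in WT libraries, also overlapping. Its rare paralog Eif5a2 had 9.22 and 9.21 CPM in KO and 10.2 and 7.49 in WT libraries.

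Of the 5 elongation factor genes proper, 3 rose and 2 did not pass. Eef2, which encodes the translocase (ENSMUSG00000034994.10, chromosome 10, 81176631 to 81182509), had 2294 and 2297 CPM in KO libraries, against 1940 and 1933 CPM in WT libraries. The difference of 0.27 ± 0.03 (log2; edgeR adjusted p = 1.3e-18, n = 2 each) was far larger than the gap between replicates. Eef1b2, which encodes a nucleotide exchange subunit of eEF1, had 1288 and 1309 CPM in KO and 1200 and 1167 in WT libraries (log2 0.16 ± 0.03). Eef1g, which encodes a structural subunit of that complex, had the largest rise of all 56 genes, 1.37 ± 0.18 (edgeR adjusted p = 2.38e-13, n = 2 each). Its level was low, 32.5 and 38.3 CPM in KO and 13.6 and 14.3 in WT libraries, which rest on 67 and 133 reads in KO and 48 and 124 reads in WT libraries. Its input of 318 CPM in KO and 319 CPM in WT cells was high beside those footprints, so this value is uncertain where reads were shared with gene copies. Eef1a1, which encodes the tRNA carrier, had 1165 and 1152 CPM in KO and 1211 and 1228 in WT libraries, with a change of -0.05 ± 0.03 that did not pass. It too has many near-identical copies, and Eef1a2 was not analysed here. Eef1d had 389 and 366 CPM in KO and 374 and 399 in WT libraries. The 5 genes summed to 5168 and 5161 CPM in KO libraries, against 4739 and 4741 CPM in WT libraries.

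The genes of proteins that act on the elongation factors changed in both directions. Eef2kmt (ENSMUSG00000022544.13, chromosome 16, 5244155 to 5255956), a lysine methyltransferase of eEF2, had 55.3 and 56.4 CPM in KO libraries, against 94.8 and 93.9 CPM in WT libraries. Its change was -0.73 ± 0.10 with an edgeR adjusted p of 1.89e-11 (n = 2 each). Eef2k, the kinase that inactivates eEF2, had 33 and 32 CPM in KO and 28.4 and 22.7 in WT libraries (log2 0.42 ± 0.16). Eef1akmt1, a lysine methyltransferase of eEF1A, was lower by 0.40 ± 0.15 on the log2 scale, with 27.7 and 33.1 CPM in KO and 41.4 and 41.6 in WT libraries. Eef1akmt2 and Eef1e1, a scaffold protein of the tRNA synthetase complex, did not pass (log2 0.23 ± 0.14 and 0.13 ± 0.07).

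The 3 termination and recycling genes differed in their footprint change. The median over all measured genes was 0.39 on chromosome 8, which holds Abce1, and -0.25 on chromosome 16, which holds Gspt1. Abce1 (ENSMUSG00000058355.8, chromosome 8, 79683442 to 79711740), the recycling ATPase, had 262 and 275 CPM in KO libraries, against 228 and 201 CPM in WT libraries. It rose by 0.38 ± 0.06 (edgeR adjusted p = 5.81e-10, n = 2 each). Gspt1, which encodes the GTPase eRF3 (ENSMUSG00000062203.14, chromosome 16, 11216240 to 11254325), had 405 and 414 CPM in KO and 523 and 532 in WT libraries. It fell by 0.34 ± 0.04 on the log2 scale (edgeR adjusted p = 2.49e-13, n = 2 each). Etf1, which encodes the stop codon reader eRF1, had 469 and 473 CPM in KO and 469 and 458 in WT libraries, with no change past the test. Gspt2, a close X-linked copy of Gspt1 that the naming rule leaves out, had 20.4 and 21.6 CPM in KO and 18.2 and 17.6 in WT libraries, and its change of 0.27 ± 0.19 did not pass. Reads of the copies may be split between them.

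Set side by side, the median footprint change was 0.12 for the 3 eIF2 genes, 0.02 for the 12 eIF3 genes, -0.10 for the 9 eIF4 genes and 0.16 for the 5 elongation factor genes. Without the genes of chromosomes 6, 8, 11 and 16 the eIF4 median was 0.00. Summed footprints did not overlap between genotypes for eIF2, at 501 and 492 CPM in KO and 377 and 385 in WT libraries, nor for the elongation factors. They overlapped for eIF3 and for eIF4, at 3614 and 3498 CPM in KO and 3503 and 3591 in WT libraries. Eif2s3y alone accounted for most of the eIF2 difference, and Eef2 alone for most of that of the elongation factors. No difference between these groups of genes was tested, and with 2 libraries against 2 an exact permutation test cannot give a two-sided p below 0.333.

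Of the 29 calls, 16 held in each alternative fit that tested them. DESeq2, which called 9.2% of its genes higher and 7.58% lower, kept 10 higher and 6 lower factor genes. It lost Eif2b2, Eif3i, Eif3k, Eif4ebp2, Eif4a2, Eif4a3, Eif4b, Eif4h, Eif1ad, Eif2d, Eif6, Eef1akmt1 and Eef2k, with adjusted p-values of 0.0533 to 0.305. Leaving out a library ended calls only among those 13 genes. Without KO library 2, Eif2b2, Eif3i, Eif3k, Eif4a2, Eif4a3, Eif4b, Eif2d, Eif6 and Eef2k were lost (edgeR adjusted p = 0.0866 to 0.383), leaving 12 higher and 8 lower. Without WT library 2, Eif2b2, Eif4a2, Eif4a3, Eif2d, Eif6, Eef1akmt1 and Eef2k were lost (edgeR adjusted p = 0.126 to 0.497), leaving 14 higher and 8 lower. Without KO library 1, Eif4a2, Eif4h, Eif6, Eef1akmt1 and Eef2k were lost (edgeR adjusted p = 0.0587 to 0.177) and Eif3m was gained as higher (0.0448). Without WT library 1, Eif4b, Eif6 and Eef1akmt1 were lost (edgeR adjusted p = 0.0507 to 0.179).

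Whole chromosomes moved in the KO libraries, and some of the factor genes lie on them. The median footprint change over all measured genes was 0.31 on chromosome 6, 0.39 on chromosome 8, -0.19 on chromosome 11 and -0.25 on chromosome 16. Of the 522 genes on chromosome 8, 338 were called higher, and of the 284 on chromosome 16, 125 were called lower. Of the factor genes, 10 lie on chromosomes 8, 11 and 16, and none on chromosome 6. Both on chromosome 8 (Eif4ebp1 and Abce1) were higher, and 5 on chromosomes 11 and 16 were lower (Eif4a3, Eif4a2, Eif2b5, Eef2kmt and Gspt1). Also on chromosomes 11 and 16, Eif4enif1, Eif5a and Eif4g1 did not pass. Less the median of chromosome 8, the change was 0.16 for Eif4ebp1 and -0.01 for Abce1. Less that of chromosome 11, it was 0.39 for Eif4enif1, 0.24 for Eif5a and -0.03 for Eif4a3. Less that of chromosome 16, it was 0.15 for Eif4g1, 0.11 for Eif4a2, -0.10 for Gspt1, -0.48 for Eef2kmt and -0.49 for Eif2b5. Among the 46 genes on other chromosomes, 13 were higher and 9 lower. With edgeR refitted without chromosomes 6, 8, 11 and 16 these counts held, and 14.3% of 7098 genes were higher and 13.9% lower. These shares were not matched for footprint level. Eif2s3y is among the 46, and the median of the 3 measured genes of chromosome Y was 0.75. The part of the chromosome-wide shifts in the single changes was not tested.

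**Figure D3:**
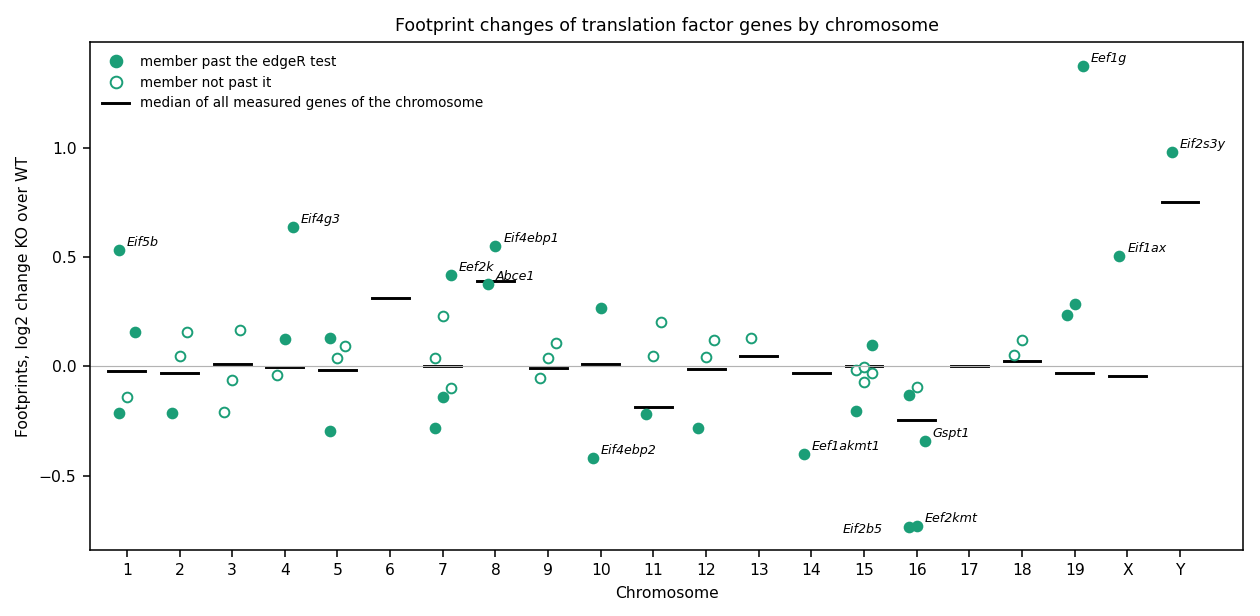
Footprint change (log2, KO over WT) of the 56 genes by chromosome, with filled points for genes past the edgeR test, open points for the others, and a bar at the median of all measured genes of each chromosome. The bars stand above 0 on chromosomes 6, 8 and Y and below 0 on 11 and 16. On chromosome 16, Eif2b5, Eef2kmt and Gspt1 lie lower than their bar, and Eif4a2 and Eif4g1 lie higher. On chromosome 11, Eif5a and Eif4enif1 lie higher than their bar, and Eif4a3 lies slightly lower.

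The input mRNA differed between the genotypes more widely than the footprints. With 1 library per genotype there is no test, and a gene is counted as past 1.5-fold on log2(CPM + 1). By that measure 12 factor genes were higher in KO cells and 1, Eif2b5, was lower, while over all genes 15.1% were higher and 6.17% lower. The SD over genes was 0.55 for the factors and 0.48 for all genes. Eif2s3y had 26.6 CPM in KO and 6.92 in WT input, a log2 ratio of 1.80 with a 95% exact counting interval of 1.65 to 2.24. The intervals are of the ratio without the added CPM, cover counting error only, and hold if the lowest value of a library stands for 1 read. Eif5b had 51.7 CPM in KO and 19.4 in WT input (log2 1.37, interval 1.23 to 1.60). Abce1 had 204 CPM in KO and 83.5 in WT input (1.28, interval 1.20 to 1.38), and Eif3a had 349 in KO and 158 in WT input (1.14, interval 1.08 to 1.21). These 4 genes also rose in footprints. The next were Etf1 at 0.90, Eif4g3 at 0.82, Eif2s2 and Eif1a at 0.81 each, Eif3e at 0.70, Eif2a at 0.67, Eif5 at 0.66 and Eif4g2 at 0.61.

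Of these 12 genes, 5 were higher in footprints, 1 (Eif3e) was lower and 6 did not pass. Eif4g2 showed the gap plainly, with 1020 CPM in KO and 667 in WT input and no footprint change past the test. Across the 56 genes, the footprint change and the input ratio had a Pearson correlation of 0.55 and a Spearman correlation of 0.59, against 0.52 and 0.46 over all 9093 genes. The input ratio also went with the length of the gene in the genome, with a Spearman correlation of 0.39 over the 56 genes and 0.27 over the 9057 genes placed on it. These are correlations across genes that share the same libraries, given as a description. Neither the part of gene length nor that of input preparation was tested.

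**Figure D4:**
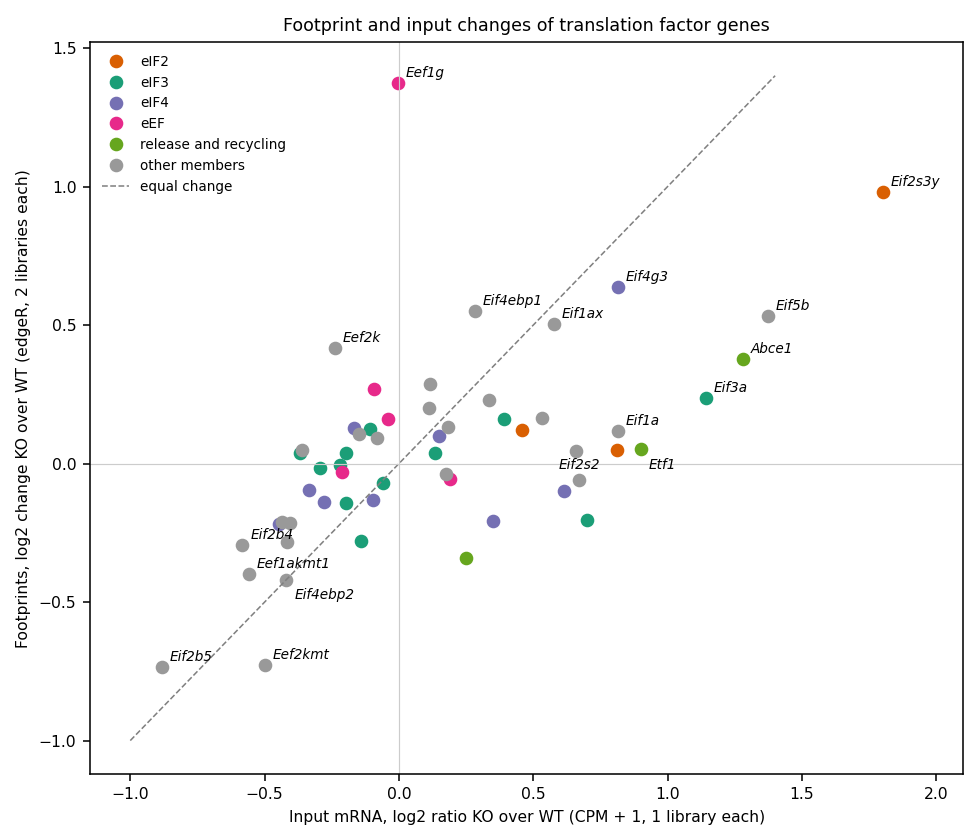
Footprint change by edgeR (vertical, log2, KO over WT, 2 libraries each) against the input ratio (horizontal, log2 of CPM + 1, KO over WT, 1 library each) for the 56 genes, coloured by group, with a dashed line of equal change. Eif2s3y, Eif5b, Abce1 and Eif3a lie to the right, above 0 and below the line, and Eef1g lies far above it at an input ratio of -0.01.

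Translational efficiency (TE) is the ratio of footprint CPM to input CPM, so the length of the coding sequence enters both parts. Footprints lie in the coding sequence and input covers the transcript, so an effect of transcript length can remain and was not tested in comparing levels between genes. Limma's interaction test over the 6 libraries called 11 of the 56 genes higher and 15 lower. Over all genes it called 4.88% higher and 12.8% lower. Among the 2352 genes with a mean of at least 100 footprint CPM, it called 348 higher and 647 lower. Among the 44 factor genes at that level, it called 10 higher and 14 lower. The spread in this test comes from the footprint libraries alone, with 2 residual degrees of freedom, since each genotype had 1 input library. With an input spread of 0.2 (log2) added to each standard error, limma called 0 of the 56 higher and 0 lower (0.044% and 0% of all genes), while 1 and 12 had an unadjusted p under 0.05. The TE changes below therefore assume an input spread no larger than that seen between footprint replicates. With each library centred on its median, limma called 15 factor genes higher and 13 lower, and 8.31% and 9.71% of all genes.

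All 3 eIF2 genes and all 3 release and recycling genes were among the 15 lower calls, and in 11 of these 15 the input was past 1.5-fold higher. Abce1 had TE ratios of 1.28 and 1.35 in KO libraries, against 2.73 and 2.41 in WT libraries (log2 -0.96 ± 0.11). Etf1 had 1.77 and 1.79 in KO and 3.32 and 3.24 in WT libraries (log2 -0.88 ± 0.08), and Gspt1 had 2.38 and 2.43 in KO and 3.66 and 3.72 in WT libraries (log2 -0.61 ± 0.08). For Gspt1 both parts moved, with fewer footprints and an input ratio of 0.25. Of eIF2, Eif2s3y changed by -0.84 ± 0.17, Eif2s2 by -0.77 ± 0.13 and Eif2s1 by -0.37 ± 0.12.

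The TE of eIF3 genes split. Eif3a had ratios of 4.29 and 4.27 in KO and 8.05 and 8.26 in WT libraries (log2 -0.93 ± 0.06, limma adjusted p = 1.49e-10, n = 2 each for footprints), and Eif3e had 2.04 and 2.1 in KO and 3.86 and 4.02 in WT libraries (log2 -0.92 ± 0.09). Eif3b (0.39 ± 0.06), Eif3d (0.26 ± 0.07), Eif3g (0.21 ± 0.05) and Eif3i (0.21 ± 0.07) were higher. Within the complex, TE in KO libraries ran between 0.48 and 0.433 for Eif3h and 4.82 and 4.91 for Eif3g. In WT libraries the lowest was again Eif3h, at 0.464 and 0.461, and the highest was Eif3a.

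Other lower TE calls were Eif5b (-0.87 ± 0.11), Eif2a (-0.80 ± 0.15), Eif4g2 (-0.74 ± 0.08), Eif1a (-0.72 ± 0.13), Eif5 (-0.63 ± 0.10), Eif4e (-0.59 ± 0.17) and Eef1a1 (-0.27 ± 0.04). Eif5b had the highest TE of all 56 genes, 8.09 and 8.37 in KO and 15.9 and 15.2 in WT libraries, ahead of Eif2s3y at 7.97 and 7.66 in KO and 15.1 and 15.6 in WT libraries, whose WT range overlapped it. The other higher calls were Eef1g (1.28 ± 0.20), Eif5a (0.40 ± 0.07), Eef2 (0.34 ± 0.03), Eif4h (0.28 ± 0.06), Eif4ebp1 (0.24 ± 0.07), Eif4g1 (0.22 ± 0.06) and Eef1b2 (0.18 ± 0.05). Eef2 had TE ratios of 0.353 and 0.354 in KO and 0.28 and 0.279 in WT libraries. The lowest ratios were those of Eef1g, 0.102 and 0.12 in KO and 0.0427 and 0.0448 in WT libraries, and then Eif4ebp2, 0.135 and 0.148 in KO and 0.138 and 0.148 in WT libraries.

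Some of the smaller TE calls were lost when 1 footprint library was left out. Without WT library 1, Eif2s1, Eif3d, Eif3i, Eif4ebp1, Eif4e and Eif4g1 were lost (limma adjusted p = 0.0601 to 0.149), and without WT library 2, Eif2s1, Eif3i, Eif4ebp1 and Eef1b2 (limma adjusted p = 0.0737 to 0.116). Without KO library 2, Eif3i was lost (limma adjusted p = 0.0729) and Eif2b3, Eif3f, Eif3m, Eif4a3, Eef2k and Eef1d were gained. Without KO library 1, Eif2b4 and Eif3l were gained. Median centring ended the calls of Eif2s1 and Eif4e (limma adjusted p = 0.0524 to 0.116) and added Eif2b4, Eif3l, Eif4a3 and Eef1d.

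Of the 28 factor genes with the higher TE in WT cells, 13 were called lower and 4 higher, and of the 28 with the lower TE, 2 were called lower and 7 higher. WT TE enters both the order and the change, so this is a description. The TE change had a Spearman correlation of -0.42 with gene length over the 56 genes and -0.36 over the 9057 genes placed. The authors' deposited table marked 13 of the 56 genes as down, 2 (Eef1g and Eef2k) as up and 41 as neither. Over all 9093 genes it marked 1169 as down and 170 as up. With Benjamini-Hochberg adjustment of the p-values in the authors' deposited table, 1 factor gene was higher (Eef2) and 2 were lower (Eif3a and Etf1), against 0.396% and 1.18% of all genes. The deposited TE ratios of each genotype share 1 input library, so they too hold no spread of the input.

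**Figure D5:**
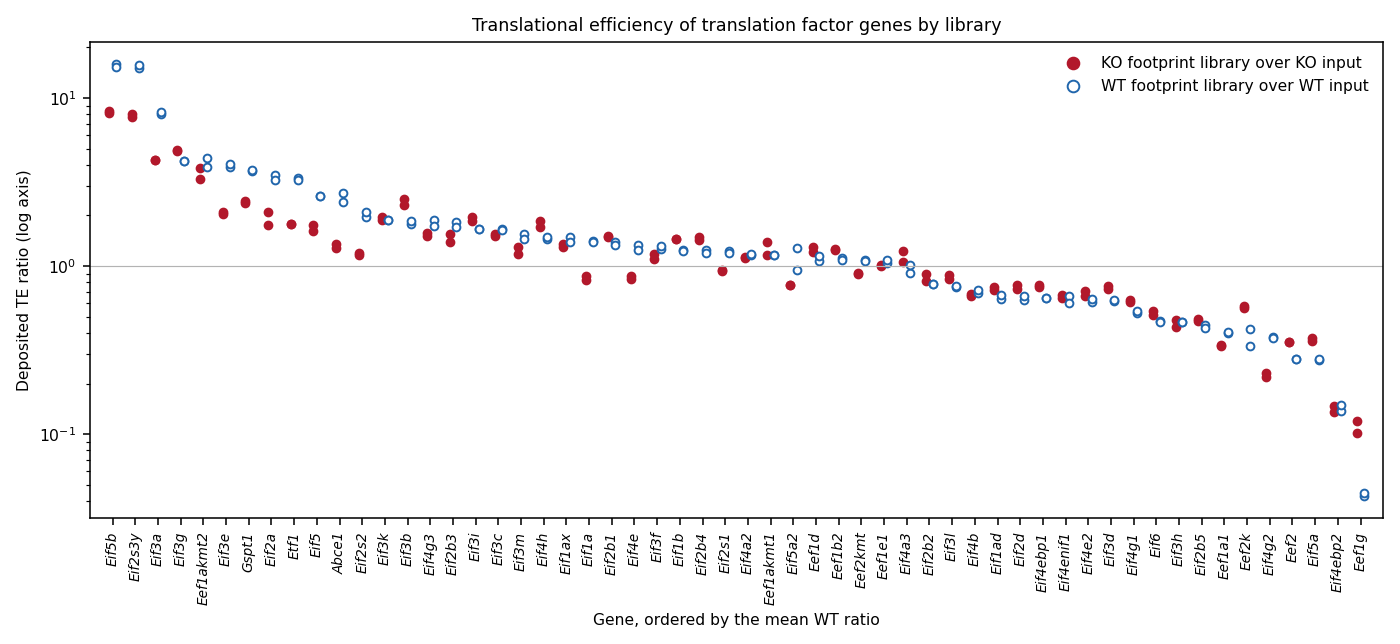
Deposited TE ratio of the 56 genes in each footprint library on a log axis, ordered by the mean ratio in WT cells; filled points are KO and open points WT libraries. At the left end the KO points of Eif5b, Eif2s3y, Eif3a and Eif3e lie below the WT points, and at the right end those of Eef2, Eif5a and Eef1g lie above them.

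The pyrimidine run at the transcript start was looked up because it is the known mark of many mRNAs of this machinery. RefSeq (GRCm38.p6) gave starts for 44 of the 56 genes. Eef1akmt1, Eef1d, Eef1g, Eif1a, Eif2b3, Eif3e, Eif3h, Eif3i, Eif4ebp1, Eif4g2, Eif6 and Etf1 were not matched. A run was a C followed by at least 4 bases that are each C or T, read on the transcript's strand. With the run beginning exactly at the start base, 1 gene had it, Eif3f, which is 2.27% of the 44, against 2.77% of the table's genes and 3.01% of all genes in the RefSeq table. With a run beginning at most 5 bases before or after the start, a looser search chosen after the first count was seen, 10 genes had it. That is 22.7%, against 23.6% of the table's genes and 21.2% of all genes, so the share lay near that of the other genes. The 30 bases around these starts, 10 before and 20 from the start base, are shown to let the runs be compared. Capitals mark the whole unbroken stretch of C and T around each run, as far as it is shown; of the 2 starts of Eif4enif1 with a run, the one with the longer stretch is given.
Eif3f (chr7:108934405-108934434, plus strand): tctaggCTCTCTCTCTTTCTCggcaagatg
Eif3l (chr15:79075213-79075242, plus strand): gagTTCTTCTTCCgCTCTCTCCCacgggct
Eif3b (chr5:140419295-140419324, plus strand): ggcgcgcggtgaCTTCTgggagtcggaagc
Eif2b2 (chr12:85219471-85219500, plus strand): ccgagcggaagttgaCCTCTCTCggcccgg
Eif2b5 (chr16:20498807-20498836, plus strand): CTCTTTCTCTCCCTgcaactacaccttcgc
Eif2s3y (chrY:1010585-1010614, plus strand): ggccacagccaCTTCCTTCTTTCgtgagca
Eif4g1 (chr16:20672717-20672746, plus strand): gcgcagctccgCCCTCTgcgccggtcacgt
Eif4enif1 (chr11:3203009-3203038, plus strand): CCCTTCTTCCggaggagcctctagcccggg
Eif1ad (chr19:5366803-5366832, plus strand): gctttcgatggCTTTTgtttctccagcggc
Eef1a1 (chr9:78481705-78481734, minus strand): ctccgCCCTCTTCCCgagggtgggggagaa
The stretches differ in length and place, and those of Eif3f, Eif2b5, Eif4enif1 and Eef1a1 and the first of Eif3l begin upstream of the annotated start. Of the 10 genes, 2 were called higher in TE (Eif3b and Eif4g1), 2 lower (Eif2s3y and Eef1a1) and 6 neither, while of the 34 without a run 6 were higher, 9 lower and 19 neither. A match to these letters is a description of the annotated start and shows no site in use, and a gene without it may begin elsewhere.

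For comparison, the starts of the translocase gene Eef2 and of Eif5b and Eif3a, whose TE fell, hold no run that begins within those 5 bases.
Eef2 (chr10:81176621-81176650, plus strand): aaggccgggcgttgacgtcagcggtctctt
Eif5b (chr1:37998000-37998029, plus strand): ctgggttcccacctggccggcggctctact
Eif3a (chr19:60790674-60790703, minus strand): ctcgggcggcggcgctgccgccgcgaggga
The last 5 bases shown for Eef2 meet the letters of a run, farther than 5 bases from the annotated start.

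The wider pathway was read from lists of genes that act on or beside the factors. Over all genes, 18.3% were higher and 16% lower in footprints, and with so few genes the lists' counts were not set apart from those shares. Among the 8 measured eIF2-alpha kinases and phosphatase subunits, 1 rose and 1 fell, and the 4 kinases did not pass. The rise was in Ppp1r15a, the stress-induced phosphatase subunit, with 14.1 and 14.1 CPM in KO and 7.38 and 9.8 in WT libraries (log2 0.66 ± 0.23), and the fall in Ppp1ca (-0.15 ± 0.04). Of 19 genes of mTORC1 signalling to translation, 2 rose and 3 fell. Pdcd4, an inhibitor of the eIF4A helicase, had 90.8 and 92.1 CPM in KO and 156 and 140 in WT libraries (log2 -0.65 ± 0.08). Rptor, the scaffold of mTORC1, lies on chromosome 11 and changed by -0.36 ± 0.11. Tbc1d7, a subunit of the TSC complex, changed by 0.47 ± 0.17. Of the 5 measured genes of poly(A)-binding proteins and partners, 1 rose (Paip2b, 0.34 ± 0.10, on chromosome 6).

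Of 10 initiation helicases and scanning partners, 1 rose and 3 fell in footprints. Bzw1, which encodes an eIF5 mimic, had 80.1 and 85.8 CPM in KO and 135 and 132 in WT libraries (log2 -0.65 ± 0.08), and its paralog Bzw2 changed by -0.34 ± 0.08. Abcf1, an ATPase that binds eIF2, rose by 0.28 ± 0.06. Of 17 genes of termination, rescue and ribosome quality control, 4 rose and 2 fell, led by the helicase gene Upf1 at 696 and 720 CPM in KO and 473 and 476 in WT libraries (log2 0.60 ± 0.04). Upf1 and Tcf25 (0.38 ± 0.06) lie on chromosome 8, and Ascc3, a helicase that splits collided ribosomes, changed by -0.41 ± 0.14. Of 17 genes of factor modification, which include Eef2kmt, 5 rose and 2 fell. Dohh, which completes the hypusine of eIF5A, had 11.2 and 11.8 CPM in KO and 21.3 and 21.6 in WT libraries (log2 -0.87 ± 0.21), and Dph3, which acts in the synthesis of diphthamide on eEF2, rose by 0.68 ± 0.13. Of 11 mitochondrial translation factor genes, 2 fell, Mtif3 (-0.69 ± 0.19) and Mrpl58 (-0.64 ± 0.08, on chromosome 11), and 9 did not pass.

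In TE, against 4.88% of all genes higher and 12.8% lower by limma, 5 of the 10 helicases and scanning partners were lower (Bzw1, Dhx9, Dhx36, Ddx3x and Denr). In that list 5 genes had input past 1.5-fold higher in KO cells (Dhx36, Dhx9, Ddx3x, Dhx29 and Denr). Of these, Dhx29 did not pass in TE, and the input of Bzw1 was not past 1.5-fold. Of the other lists, 3 of 19 mTORC1 genes, 2 of 5 poly(A)-binding genes and 1 of 8 kinase and phosphatase genes were lower in TE. Of the 17 termination and rescue genes 2 were higher and 3 lower, 1 of the 17 modification genes was higher, and the 11 mitochondrial genes did not pass.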

How the data were processed

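The authors deposited unscaled footprint counts for each gene, a unit taken per the file headers. The authors deposited the input only as CPM, reads scaled to the library total, and TE as the ratio of footprint CPM to input CPM. The deposited log2 fold of TE and the deposited p-value are the authors' own. Per the submitters' processing notes, reads were handled with Bowtie and mm10. No counter or annotation is named in the sources. The 2 columns of a second input library per genotype repeated the first and were not used. The labels call the input both polyA RNA and RiboZero mRNA, so its selection is unclear.

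Footprints of 2 KO and 2 WT libraries were tested with edgeR 4.0.16 (quasi-likelihood, TMM, library sizes recovered from counts and CPM), and TE with limma 3.58.1 on log2(CPM + 1) as an interaction (genotype by library type). P-values were Benjamini-Hochberg adjusted over 9093 genes at 0.05; the low-value filters removed 0 genes. Scripts were tested on simulated data. DESeq2 1.42.0 and other settings were alternatives. RefSeq placed 9057 genes. All genes past a test are named with their change; paralog sets, eIF2 and the leading genes of each group have library values; pathway lists give up to 3 leading genes. The genes and lists were chosen with earlier results of these data known. Levels per codon were not computed for lack of a protein table.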

Additional observations from a re-analysis of the deposited data

How the results depend on the processing

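Over all genes, the footprint calls numbered 1668 higher and 1458 lower, and 772 and 636 with DESeq2. Leaving out 1 library gave 1015 to 1480 higher and 920 to 1253 lower, and for the 56 factor genes 12 to 14 higher and 8 to 12 lower. DESeq2 called 6 factor genes lower, against 14 with edgeR. Without the genes of chromosomes 6, 8, 11 and 16, edgeR called 1018 of 7098 genes higher and 985 lower. Of the 46 factor genes left it called 13 higher and 9 lower, with fewer genes tested. RLE scaling, other library sizes and the count filters kept these counts within 1.5 times. TE calls over all genes (444 higher, 1165 lower) became 756 higher with median centring, 4 higher and 0 lower with an added input spread of 0.2 (46 and 696 at an unadjusted p under 0.05 by limma), and 36 higher and 107 lower with the p-values of the authors' deposited table, adjusted. Leaving out 1 footprint library gave 279 to 811 higher and 823 to 1589 lower. For the factor genes (11 higher, 15 lower) the added spread left 0 and 0 (1 and 12 at an unadjusted p under 0.05), the adjusted p-values of the authors' deposited table gave 1 and 2, and leaving out 1 library gave 7 to 13 higher and 13 to 18 lower, with the 7 reached without WT library 1. Leaving out 1 library gave a median footprint change of 0.00 to 0.02 for eIF3, and without the genes of those chromosomes it was 0.00 for eIF4 (otherwise -0.10). With median centring the median TE change was -0.68 for eIF2 (otherwise -0.77), 0.10 for eIF3 (0.01), 0.03 for eIF4 (-0.06, a change of sign) and 0.27 for the elongation factors (0.18). No called factor gene changed sign. In the input, subtracting the median ratio moved 13 of 56 values beyond their counting interval, and a pseudocount of 0.1 CPM moved none. The replicate numbers did not pair the samples (correlation of deviations -0.03); with the replicate block, edgeR called 1580 higher and 1372 lower of all genes and 14 and 14 factor genes, losing Eif4b, and limma called 441 and 1200 in TE, 10 and 15 factor genes, losing Eif3i. The count model of TE on recovered input reads was not run, because too few low values bore whole reads out, and footprints per codon were not run for lack of protein lengths. Eef1g, Eif5a2, Eef2k, Eef1akmt1, Eef1akmt2 and Eif1b, with footprint means under 50 CPM, are the factor genes where depth limits most.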
